A study of Homo sapiens with 8 samples.

Results

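This account follows 5 genes of transcriptional elongation and acetyl-lysine reading, namely CDK12, CDK13, CCNK (which encodes cyclin K), BRD2 and BRD3, in RNA-seq of the multiple myeloma (MM) cell lines JJN3 and H929. The genes were taken by symbol and mapped to Ensembl identifiers, and they are 5 of the 63677 genes counted, of which 33323 had a count above 0. Cells had been given THZ1, a covalent inhibitor of CDK7, at 50 nM, or its vehicle DMSO, for 24 h, with 2 libraries for each line and treatment and 8 in all. JJN3 carries a translocation of MAF to an immunoglobulin locus, and H929 one that places FGFR3 and WHSC1 (MMSET) under such control. No further allele or agent is given, both lines are long-established cultures that each represent a single patient's tumour, and no source says whether the 2 libraries of a group came from separate cultures, so p-values measure the spread between these libraries only, which may be technical.

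CDK12 and CDK13 are kinases that, each bound to cyclin K, phosphorylate the C-terminal domain (CTD) of RNA polymerase II while the polymerase elongates. Loss of CDK12 activity is known for lowering the expression of long genes of the DNA damage response, and THZ1 binds CDK12 and CDK13 as well as CDK7 when its dose is raised. BRD2 and BRD3 belong to the BET proteins, which bind acetylated histones through paired bromodomains, recruit elongation factors to promoters and enhancers, and are targets of BET inhibitors in MM.

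The libraries under the H929 labels stood apart from each other before any member gene was considered. Lambda genes held 99.99% and 97.96% of the light chain V counts with the H929 DMSO label, against 0.203% and 0.194% in those labelled H929 THZ1. The second of the libraries labelled H929 DMSO held 597 kappa V counts and the first 3. FGFR3, the receptor gene that the H929 translocation activates, stood at 2.40 and 15.8 CPM (counts scaled to the library total) with the DMSO label and at 766 and 733 CPM with the THZ1 label. MAF stood at 960 and 904 CPM against 148 and 161 CPM in the same libraries. The 4 JJN3 libraries had a lambda share of 0.244% to 0.369% and correlated between treatments at 0.966 to 0.972 on the log2 CPM scale over 16122 genes, which are not independent replicates, while the libraries with the H929 labels correlated between treatments at 0.777 to 0.812. In the libraries labelled H929, treatment and source of the cells therefore cannot be told apart, the libraries labelled H929 DMSO lack the light chain and FGFR3 level of those labelled H929 THZ1, and each value is given for the libraries as labelled. All 10 plasma cell markers reached 1 CPM in every group except SLAMF7 in a library labelled H929 DMSO (0.107 CPM). The 12 markers of other blood and stromal cells summed to 5.07 to 11.3 CPM in the other 3 groups, and to 36.9 to 37.03 CPM in the libraries labelled H929 THZ1, where CD3E gave 34.7 and 35.6 CPM, and the part of these markers in the results was not tested.

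The genes lie on 5 chromosomes (GRCh37, the build of the counts, with gene limits from GENCODE). CDK12 spans chr17:37617739-37723812 on the plus strand and CDK13 chr7:39989720-40139179 on the plus strand. CCNK spans chr14:99947506-100001381 and BRD2 chr6:32936371-32949282, both on the plus strand, and BRD3 spans chr9:136895427-136933657 on the minus strand. CDK13 is the longest at 149460 bp and BRD2 the shortest at 12912 bp. Among the 5 genes, 3 share exonic bases with a gene on the other strand, CCNK with CCDC85C over 4893 bp, BRD3 with BRD3OS (LINC00094 in the counts) over 1283 bp and BRD2 with HLA-DMA over 55 bp. BRD2 also shares 577 bp with ENSG00000263756, a non-coding gene on the other strand that had 0 counts. Whether counting used strand is not given in the sources used here, so reads from those stretches cannot be assigned to either partner with certainty.

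The sequence just before the first listed RefSeq start of a gene is shown where at least 100 bases next to that start hold no annotated exon. CDK12, BRD2 and BRD3 met this rule. Sequences are from RefSeq's GRCh38.p14 table, each matched at a single place in GRCh37, whose coordinates are given, and are written 5′ to 3′ on the gene's strand. Capitals mark the GC box GGGCGG or its reverse complement. The stretches are chr17:37617489-37617738 (plus strand) for CDK12, chr6:32936222-32936370 (plus strand) for BRD2, where the 101 bases further upstream belong to an HLA-DMA exon, and chr9:136933149-136933398 (minus strand) for BRD3. The BRD3 stretch lies inside the GENCODE limits of the gene, which begins at 136933657 on the minus strand, so its values depend on the start used.
CDK12: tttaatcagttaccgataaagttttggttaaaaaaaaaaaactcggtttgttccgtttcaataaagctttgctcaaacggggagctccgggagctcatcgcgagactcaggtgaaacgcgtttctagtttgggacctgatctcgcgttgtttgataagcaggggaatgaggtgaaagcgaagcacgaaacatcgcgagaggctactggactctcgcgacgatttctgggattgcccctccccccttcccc
BRD2: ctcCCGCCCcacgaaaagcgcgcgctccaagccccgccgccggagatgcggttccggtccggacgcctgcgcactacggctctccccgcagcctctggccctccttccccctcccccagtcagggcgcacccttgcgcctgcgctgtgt
BRD3: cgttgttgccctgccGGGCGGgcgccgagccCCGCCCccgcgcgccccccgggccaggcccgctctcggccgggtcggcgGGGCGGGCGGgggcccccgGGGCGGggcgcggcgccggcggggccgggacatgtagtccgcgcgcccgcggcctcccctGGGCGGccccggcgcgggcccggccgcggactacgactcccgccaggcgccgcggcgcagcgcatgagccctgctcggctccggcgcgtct
G and C made up 48.8% of the CDK12 stretch, 73.8% of the BRD2 stretch and 86.8% of the BRD3 stretch, against a median of 58% over the 250 bases before the start in 35116 RefSeq promoters. The 250 bases before the first listed start, not shown, had 72.0% for CDK13 and 65.2% for CCNK, and CDK13 rose less in JJN3 than CCNK. Any link between G and C content and the rises was not tested. In those 250 bases, 135 for CDK13 and 145 for CCNK lie in annotated exons of the same gene. Their G and C values and motif counts therefore do not describe upstream sequence alone. The table holds 4 starts for BRD2, and the 250 bases before the other 3 had 62.4%, 47.6% and 66.4% G and C, so the value for BRD2 depends on the start. Over the 250 bases before the first listed start, GGGCGG was found on either strand 6 times for BRD3 (overlapping matches counted), 4 times for CCNK, once for BRD2 and for CDK13, and not for CDK12, and 42.6% of all promoters hold it. CCAAT was found for CCNK only, once, and in 32.01% of promoters. The E-box CACGTG, which 6.35% of promoters hold, was found in none of the 5 windows. The same held for the ETS motif CCGGAAG, present in 8.52% of promoters, and for the TATA box TATAAA, present in 10.7%. Both strands were searched for every motif.

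Levels were compared between genes per kilobase of merged exons, on the scale of CPM after TMM normalisation. In JJN3 with DMSO, BRD2 was highest at 46.4 ± 2.20 CPM per kb (SD, n = 2), followed by CCNK at 15.8 ± 1.11, CDK12 at 7.06 ± 0.0532, CDK13 at 5.001 ± 0.0598 and BRD3 at 2.54 ± 0.478 CPM per kb. The cyclin message thus stood above that of either kinase. The order of the kinases depends on the length used, since with the longest transcript CDK13 stood at 13.01 and CDK12 at 11.1 CPM per kb. In the libraries labelled H929 DMSO the order was BRD2 (38.8 ± 0.532 CPM per kb), CCNK (15.7 ± 0.457), CDK12 (12.8 ± 0.718), BRD3 (8.002 ± 0.0321) and CDK13 (2.76 ± 0.0470), the same with either length.

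In JJN3 the normalised level of all 5 genes was higher after THZ1 in both libraries than in either DMSO library, which held for 38.5% of the 13984 genes tested. Of the 5, BRD2, BRD3 and CCNK, were called higher at an adjusted p under 0.05 and a log2 fold change beyond 0.5, where 20.6% of all genes were called higher. With the adjusted p alone all 5 passed, where 28.9% of all genes did so in that direction. The kinases moved least, with log2 fold changes at percentiles 66.8 (CDK12) and 72.2 (CDK13) of all genes tested, and the BET genes most, at percentiles 87.6 (BRD2) and 88.5 (BRD3). In such bulk libraries, fewer cells of a type and less RNA per cell cannot be told apart. TMM sets levels relative to the other genes of the libraries, and the study's methods describe no added reference RNA. Each rise or fall given here is therefore relative to those genes and is not one in mRNA per cell.

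CDK12 gave 1780 and 1779 counts in the DMSO libraries and 1891 and 1931 in the THZ1 libraries in JJN3. After normalisation its level went from 91.6 ± 0.691 to 111.5 ± 5.85 CPM (SD, n = 2), without overlap. The log2 fold change was 0.30 (standard error 0.08, edgeR adjusted p = 0.00718), below the fold limit. The adjusted p missed the threshold without either DMSO library (0.0885 and 0.102) and with scaling to total counts (0.0536).

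CDK13, the second cyclin K kinase, gave 2374 and 2439 counts in the DMSO libraries and 2675 and 2928 in the THZ1 libraries. Its level went from 123.9 ± 1.48 to 163.2 ± 0.547 CPM, a log2 fold change of 0.41 (standard error 0.08, edgeR adjusted p = 0.000782), also under the fold limit. CCNK, whose product both kinases need for activity, gave 2637 and 2413 counts in the DMSO libraries and 3208 and 3171 in the THZ1 libraries. CCNK rose by 0.53 on the log2 scale (1.45-fold, standard error 0.09, edgeR adjusted p = 0.000356), just past the limit. It fell below the limit with total counts (0.43), without the filter on low counts (0.49), and without the second DMSO library (0.45) or the first THZ1 library (0.45). CCDC85C, its overlapping partner, gave 388 and 352 counts in the DMSO libraries and 310 and 431 in the THZ1 libraries (log2 fold change 0.19, edgeR adjusted p = 0.246), and SETD3, which starts 280 bp away on the other strand, had 1396 and 1313 against 1033 and 1189 (-0.09, edgeR adjusted p = 0.347). The neighbours of CCNK were chosen by position after the values of CCNK were seen, as were those of BRD2 and BRD3.

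BRD2 gave 8325 and 7863 counts in the DMSO libraries and 12665 and 13563 in the THZ1 libraries in JJN3, the most of the 5 genes. BRD2 rose by 0.89 on the log2 scale (1.85-fold, standard error 0.09, edgeR adjusted p = 1.34e-05). HLA-DMA, which starts 500 bp away in the opposite direction and encodes a chaperone of HLA class II peptide loading, gave 1507 and 1623 counts in the DMSO libraries and 1239 and 1680 in the THZ1 libraries, which overlap. BRD3 gave only 383 and 296 counts in the DMSO libraries and 476 and 668 in the THZ1 libraries, and the groups did not overlap. BRD3 rose by 0.94 (1.92-fold, standard error 0.15, edgeR adjusted p = 0.000298), with the widest error of the 5. BRD3OS, the opposite-strand gene, went from 509 and 491 to 174 and 214 counts (log2 fold change -1.17, standard error 0.12, edgeR adjusted p = 1.31e-05).

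**Figure D1:**
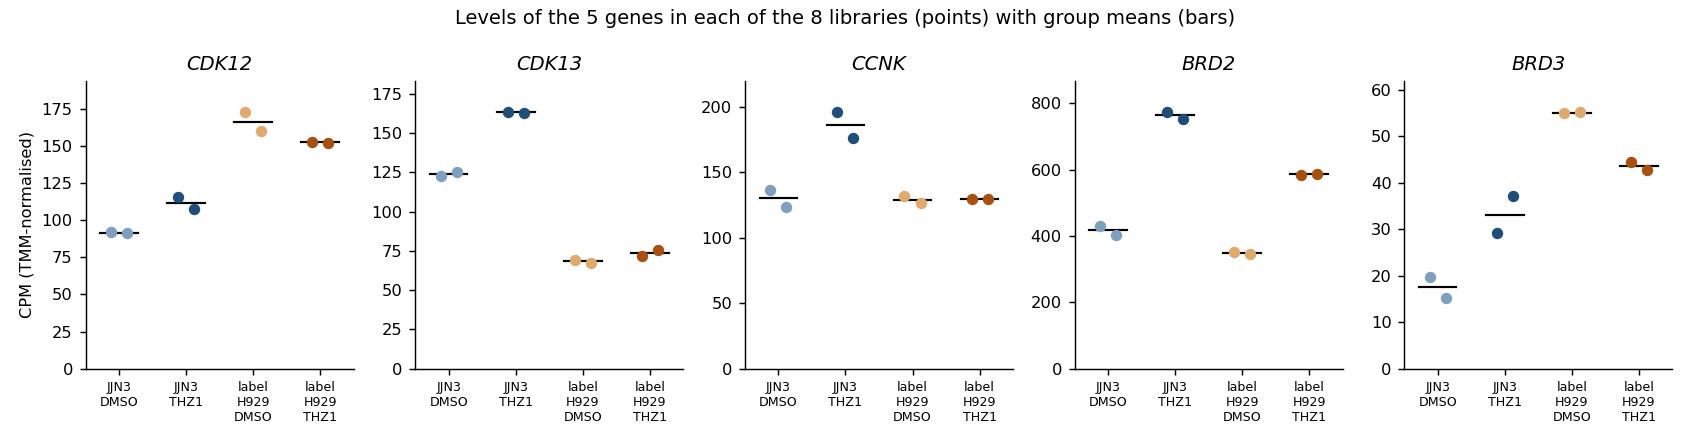
Level of each gene in each library, in TMM-normalised CPM on axes that start at 0, with points for libraries and bars for group means. BRD2 stands at 764 CPM in JJN3 with THZ1 against 417 with DMSO and at 586 against 349 under the H929 labels, while CCNK lies near 130 CPM in every group except JJN3 with THZ1 (186 CPM).

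Under the H929 labels BRD2 alone was called higher, 1 of the 5 genes where 33.1% of the 14863 genes tested were called higher. BRD2 had 6544 and 6232 counts with the DMSO label and 11134 and 11123 with the THZ1 label. The log2 fold change was 0.76 (1.69-fold, standard error 0.05, edgeR adjusted p = 1.46e-09), while HLA-DMA beside it went from 2673 and 2263 to 55 and 44 counts (-5.68). BRD3 was lower with the THZ1 label, at 845 and 811 counts against 1021 and 997. The log2 fold change was -0.33 (standard error 0.07, edgeR adjusted p = 0.000327), which passed the adjusted p but not the fold limit. By the adjusted p alone 40.9% of all genes were lower, and 32.6% were lower with the fold limit added.

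The cyclin K genes did not pass between the H929 labels with TMM normalisation and all libraries. CDK12 had 3216 and 2885 counts with the DMSO label and 2909 and 2878 with the THZ1 label (log2 fold change -0.12, 95% interval -0.24 to -0.01, edgeR adjusted p = 0.0516). CDK13 had 1285 and 1218 against 1362 and 1426 counts (0.11, 95% interval -0.02 to 0.24, edgeR adjusted p = 0.114). With scaling to total counts CDK13 passed the adjusted p but not the fold limit (0.16, edgeR adjusted p = 0.027). CCNK had 2450 and 2283 against 2461 and 2455 counts (0.01, 95% interval -0.11 to 0.12, edgeR adjusted p = 0.877), although CCDC85C on the other strand fell by 1.74.

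The difference in log2 fold change between the H929 labels and JJN3 was tested over all 8 libraries. Of the 5 genes, 4 differed at an adjusted p under 0.05, where 62.0% of 16122 genes did in either direction. These 4 differences were negative, at percentiles 19.48 (BRD3) to 39.85 (CDK13) of all genes tested. All genes were not counted by direction, so the shared sign is not read as a trait of the members. BRD3 differed most, by -1.26 (95% interval -1.62 to -0.90, edgeR adjusted p = 7.1e-06). CCNK differed by -0.51 (-0.74 to -0.29, edgeR adjusted p = 0.000494) and CDK12 by -0.41 (-0.62 to -0.20, edgeR adjusted p = 0.00187). CDK13 differed by -0.29 (-0.49 to -0.09, edgeR adjusted p = 0.0136), and that call was lost with total counts (edgeR adjusted p = 0.197), without the filter (0.12), and without the first JJN3 DMSO library (0.0635), the first or second library labelled H929 DMSO (0.0674 and 0.0512) or the first labelled H929 THZ1 (0.0985). BRD2 gave a difference of -0.13 with a 95% interval of -0.33 to 0.08 (edgeR adjusted p = 0.285). Each of these differences contains the difference in source between the H929 labels.

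**Figure D2:**
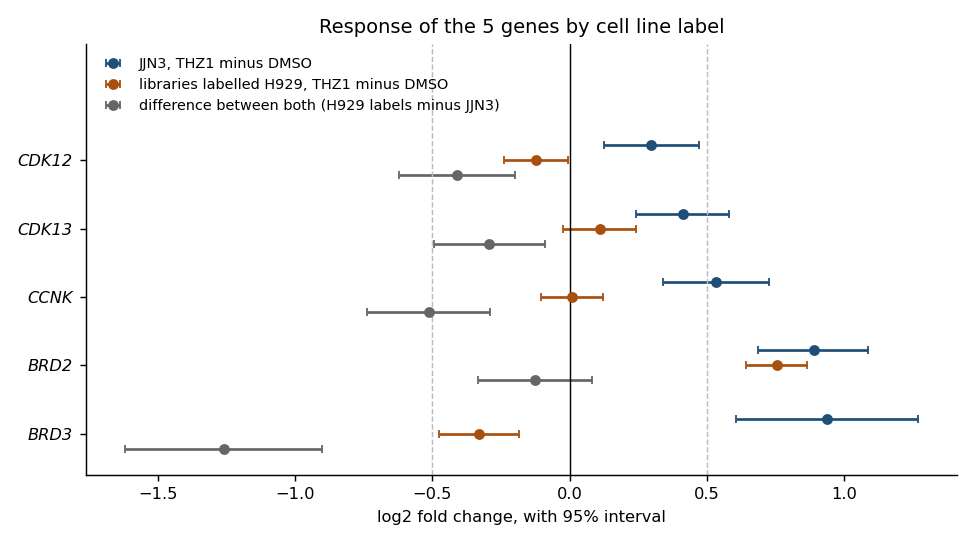
Log2 fold change of each gene (horizontal axis) with its 95% interval, in JJN3, between the H929 labels, and as the difference between both; dashed lines mark the fold limit of 0.5. BRD2 lies to the right of the limit in both lines' labels (0.89 and 0.76), and BRD3 changes side (0.94 and -0.33).

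Across the 4 groups the 5 genes had different orders of level. CDK12 was highest with the H929 DMSO label (166.5 ± 9.31 CPM), then with the H929 THZ1 label (152.5 ± 0.622), in JJN3 with THZ1 (111.5 ± 5.85) and in JJN3 with DMSO (91.6 ± 0.691). The first 2 did not pass the test (edgeR adjusted p = 0.107) and the other neighbours did. CDK13 had the opposite order of line labels, with 163.2 ± 0.547 and 123.9 ± 1.48 CPM in JJN3 with THZ1 and DMSO and 73.5 ± 2.64 and 68.3 ± 1.16 CPM with the H929 THZ1 and DMSO labels. The last 2 were not told apart (edgeR adjusted p = 0.18). For CCNK, JJN3 with THZ1 (186.3 ± 14.0 CPM) stood above the other 3 groups, which lay at 129.2 to 130.1 CPM and did not differ between neighbours (edgeR adjusted p = 0.954 and 0.974).

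For both BET genes every neighbour in the order differed. BRD2 ran from JJN3 with THZ1 (764.4 ± 14.4 CPM) through the H929 THZ1 label (586.4 ± 1.64) and JJN3 with DMSO (416.9 ± 19.8) to the H929 DMSO label (348.8 ± 4.78). BRD3 ran from the H929 DMSO label (55.1 ± 0.221 CPM) through the H929 THZ1 label (43.6 ± 1.11) and JJN3 with THZ1 (33.1 ± 5.68) to JJN3 with DMSO (17.5 ± 3.29). Of all genes in that fit, 75.0% differed between the H929 labels, 54.6% between the JJN3 treatments, 75.0% between the DMSO groups, 76.6% between the THZ1 groups and 75.8% between JJN3 with DMSO and the H929 THZ1 label.

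With DMSO, the libraries labelled H929 had 1.82 times the CDK12 of JJN3 (log2 difference 0.86, standard error 0.07, edgeR adjusted p = 1.22e-08) and 0.551 times its CDK13 (-0.86, standard error 0.07, edgeR adjusted p = 7.84e-09). BRD3 was 3.15 times as high (log2 difference 1.66, standard error 0.12, edgeR adjusted p = 3.42e-09). CCNK gave a log2 difference of -0.01 with a 95% interval of -0.17 to 0.15. The libraries labelled H929 THZ1 set against JJN3 with DMSO gave 0.73 for CDK12, -0.75 for CDK13 and 1.32 for BRD3, in the same directions. That comparison leaves out the libraries labelled H929 DMSO but differs in treatment as well as in line label. With THZ1 on both sides the log2 differences were 0.45 for CDK12, -1.15 for CDK13, 0.39 for BRD3 and -0.52 for CCNK. Against JJN3 with DMSO, BRD2 gave -0.26 with the H929 DMSO label (edgeR adjusted p = 0.00329). The H929 THZ1 label gave 0.49 (edgeR adjusted p = 7.8e-06), where treatment differs too. With THZ1 on both sides BRD2 gave -0.38 (edgeR adjusted p = 0.000105), in the direction seen with DMSO on both sides.

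The ratio of the counts of 2 paralogs within a library does not depend on its depth. The CDK12 to CDK13 ratio was 0.740 ± 0.0144 in JJN3 with DMSO and 0.683 ± 0.0335 with THZ1 (SD, n = 2). It was 2.44 ± 0.0948 and 2.08 ± 0.0832 with the H929 DMSO and THZ1 labels, so CDK13 counts prevailed in JJN3 and CDK12 counts in the libraries labelled H929. The BRD2 to BRD3 ratio was 24.2 ± 3.41 and 23.5 ± 4.46 in JJN3 with DMSO and THZ1, which overlap. Under the H929 labels it was 6.33 ± 0.112 and 13.4 ± 0.381. The CCNK to CDK12 ratio went from 1.42 ± 0.0885 to 1.67 ± 0.0384 in JJN3, without overlap. The CCNK to CDK13 ratio was 1.05 ± 0.0859 and 1.14 ± 0.0822 in JJN3, which overlap, and 1.89 ± 0.0228 and 1.76 ± 0.0603 with the H929 DMSO and THZ1 labels. A ratio of counts does not allow for the length of either gene, and no test was run on these ratios.

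**Figure D3:**
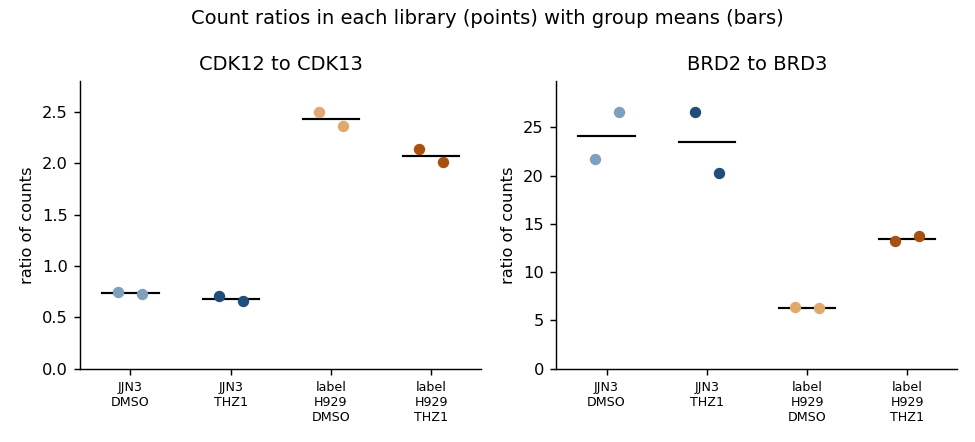
Ratio of counts within each library for the kinase pair (left) and the BET pair (right), on axes that start at 0, with points for libraries and bars for means. The kinase ratio is under 1 in all 4 JJN3 libraries and above 2 in all 4 labelled H929, and the BET ratio overlaps between the JJN3 treatments.

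Over the 8 libraries, log2 CPM of CDK12 and CDK13 ran in opposite directions (Pearson r = -0.84) and that of CDK12 and BRD3 together (r = 0.93), while CCNK and BRD2 gave r = 0.78. These values are descriptions over 8 libraries that fall into 4 groups. Among the 9676 genes whose average log2 CPM reached 3, the patterns most like CDK12 were SIDT2 (r = 0.996), PHKA2 (0.994) and GCH1 (0.993), and those most like CDK13 were SEPT7 (0.999), FAM49B (0.998) and MAGI3 (0.998). CCNK was most like SREBF2 (0.993), ASH1L (0.993) and FOXJ3 (0.992), of which ASH1L encodes a bromodomain-containing histone methyltransferase. BRD2 was most like FSD1L, RAB30 and HIST1H2BJ (0.995 each), and BRD3 most like MAP2K1 (0.994), CITED2 (0.987) and MAPRE1 (0.986).

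Among the other transcription kinases and cyclins, 5 of 14 were called higher in JJN3 and 0 lower by edgeR (20.6% and 21.3% of all genes were), with a median log2 fold change of 0.08 beside a median of 0 over all genes. At an unadjusted p under 0.05, 4 were lower, as by the adjusted p alone, where 30.1% of all genes were. By DESeq2 4 were called higher and 0 lower, where it called 2229 and 2612 of 27756 genes with a fold change before a low-count filter. With scaling to total counts the median of all genes was -0.10 and that of the list was -0.02. With that scaling 5 of the 14 were called higher and 3 lower, where 2353 and 3639 of 13984 genes were. CCNL2, a cyclin of the CDK11 kinases, rose from 1503 and 1647 to 3080 and 2737 counts (log2 fold change 1.08). CDK19, a Mediator kinase, rose by 1.08, and the cyclins of CDK9, CCNT2 and CCNT1, rose by 1.02 and 0.78. CDK9, the kinase of P-TEFb, gave 627 and 726 counts in the DMSO libraries and 433 and 432 in the THZ1 libraries, a log2 fold change of -0.45 (edgeR adjusted p = 0.00446). CDK7, the target of THZ1, had 510 and 466 against 297 and 358 counts (-0.38, edgeR adjusted p = 0.0128), and its cyclin CCNH gave -0.40, and neither passed the fold limit. Under the H929 labels 3 of the 14 were higher and 3 lower (21.4% each, against 33.1% and 32.6% of all genes), with CDK7 at -2.20 and CCNT1 at 0.79.

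Of the 24 elongation factors, 6 were called higher and 3 lower in JJN3 (25.0% and 12.5%, against 20.6% and 21.3% of all genes), with a median of 0.05, so the share called higher was near that of all genes. AFF1, SETD2 and AFF4 rose by 1.47, 1.36 and 1.21 on the log2 scale. AFF1 and AFF4 are scaffolds of the super elongation complex that holds P-TEFb, and SETD2 methylates histone H3 in transcribed genes. NELFE (-1.22) and NELFB (-0.72), subunits of the negative elongation factor, fell, as did SUPT4H1 (-0.55), a subunit of DSIF. The other subunits of both complexes, named after their values were seen, did not follow: NELFA gave 0.06 and NELFCD -0.03, neither past the test, and SUPT5H of DSIF rose by 0.57 (edgeR adjusted p = 0.000137). Under the H929 labels 8 were higher and 4 lower (33.3% and 16.7%, against 33.1% and 32.6% of all genes).

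CTD phosphatases and CTD-binding proteins had 5 of 14 higher and 2 lower in JJN3 (35.7% and 14.3%, against 20.6% and 21.3% of all genes), with a median log2 fold change of 0.21. RPRD2, which binds the phosphorylated CTD, rose from 4736 and 4204 to 11634 and 11119 counts (1.55), and the CTD-binding SCAF4 and SCAF8 rose by 0.94 and 0.78. The phosphatases SSU72 and RPAP2 fell, by 1.00 and 0.62 on the log2 scale. Between the H929 labels 4 were higher and 4 lower (28.6% each, against 33.1% and 32.6% of all genes).

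Bromodomain genes outside the BET family had 14 of 34 tested higher (41.2%, against 20.6% of all genes) and 0 lower (against 21.3%) in JJN3. Their median log2 fold change was 0.27. DESeq2 called 14 and 0 as well, where it called 2229 and 2612 of 27756 genes with a fold change before a low-count filter. At an unadjusted p under 0.05, 5 were lower by edgeR, a limit at which all genes were not counted. By the adjusted p alone 18 were higher and 4 lower, where 28.9% and 30.1% of all genes were. With total counts 13 were called higher and 2 lower, where 2353 and 3639 of 13984 genes were. Past a log2 fold change of 1, 5 were higher, where 9.99% of all genes were. The largest rises were those of ASH1L (1.80, from 1694 and 1458 to 5462 and 4038 counts), CECR2 (1.44) and the acetyltransferase CREBBP (1.15). In the libraries labelled H929, 7 of 34 were higher and 8 lower with the THZ1 label (20.6% and 23.5%, against 33.1% and 32.6% of all genes).

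DNA damage response genes had 10 of 21 called lower (47.6%, against 21.3% of all genes) and 0 higher (against 20.6%) in JJN3 by edgeR. Their median log2 fold change was -0.45. DESeq2 also called 10 lower and 0 higher, where it called 2612 and 2229 of 27756 genes with a fold change before a low-count filter. The count depends on the limit. Past a log2 fold change of 1, BRCA1 alone was lower, 1 of 21 where 7.19% of all genes were, and by the adjusted p alone 12 were lower and 3 higher, where 30.1% and 28.9% of all genes were. An unadjusted p under 0.05 also gave 3 higher, a limit at which all genes were not counted. BRCA1, which acts in homologous recombination, fell from 2916 and 2895 to 1132 and 1223 counts (-1.11, standard error 0.08, edgeR adjusted p = 1.33e-06). RAD51C, of the same repair pathway, fell by 0.96. The genes higher by the adjusted p alone, named after their values were seen, were FANCA (0.42), ATM (0.37, edgeR adjusted p = 0.00692) and BRCA2 (0.32, edgeR adjusted p = 0.0126), of which ATM encodes a kinase that signals DNA breaks. ATR, a related kinase, gave 0.10 (edgeR adjusted p = 0.325). Between the H929 labels 6 were lower and 4 higher (28.6% and 19.0%, against 32.6% and 33.1% of all genes), with a median of -0.02.

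**Figure D4:**
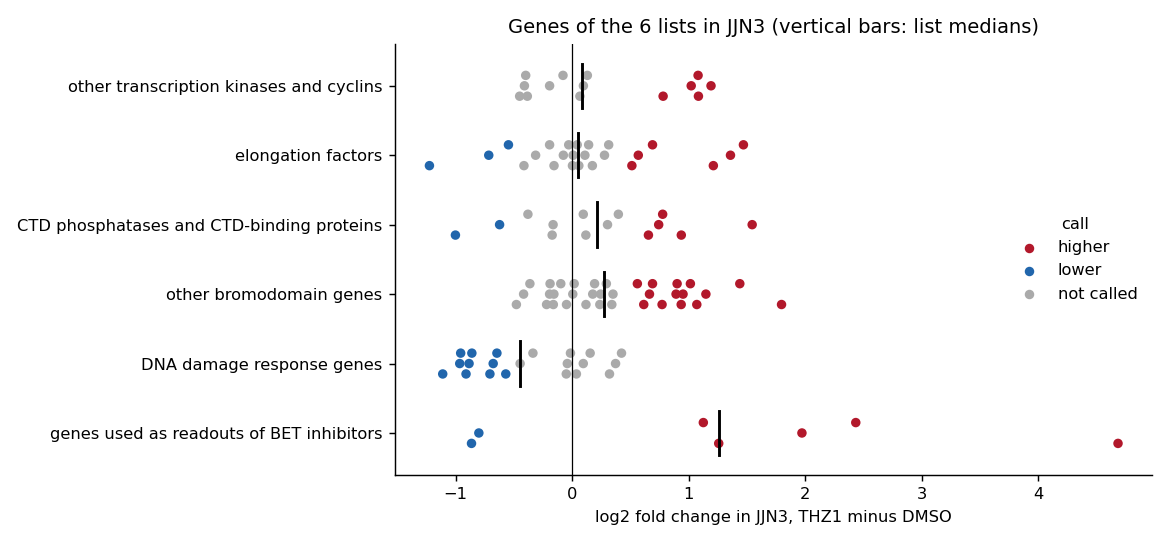
Log2 fold change in JJN3 (horizontal axis) of each gene tested in the 6 lists, coloured by call, with vertical bars at the list medians. The DNA damage response genes hold 10 calls, all lower, and the bromodomain genes 14 calls, all higher. Of all genes tested, 21.3% were called lower and 20.6% higher.

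Of the 8 genes used as readouts of BET inhibitors, 7 were tested in JJN3 and IL7R had a single count over the 8 libraries. Of the 7, 5 were higher and 2 lower after THZ1 (20.6% and 21.3% of all genes were). The list was not split by the direction of change that BET inhibitors give, so these counts do not measure likeness to their effect. Past a log2 fold change of 1 the 5 remained higher and 0 were lower, where 9.99% and 7.19% of all genes were. HEXIM1, the inhibitor of P-TEFb that BET inhibitors raise in many cells, gave 1320 and 1273 counts in the DMSO libraries and 2706 and 2711 in the THZ1 libraries (log2 fold change 1.26, standard error 0.08, edgeR adjusted p = 1.08e-06). HIST1H2BK went from 620 and 667 to 2737 and 3363 counts (2.43) and HIST2H2BE from 196 and 195 to 4179 and 4623 (4.68), and as members of a multigene family their counts are uncertain. SERPINI1, a serpin, rose by 1.13. The remaining genes tested encode an oncogenic transcription factor and chemokine receptors.

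MYC, which BET inhibitors lower in MM cells, gave 22083 and 22167 counts in the DMSO libraries and 10047 and 12233 in the THZ1 libraries in JJN3 (-0.80, standard error 0.10, edgeR adjusted p = 5.13e-05). CCR1 fell by 0.86 and CCR2 rose by 1.97, the latter from 38 and 39 to 124 and 141 counts. Between the H929 labels HEXIM1 was also higher (865 and 879 against 2432 and 2383 counts), as were both histone genes, while MYC went from 43929 and 41711 to 2577 and 2513 counts. CCR2 went from 3818 and 3279 to 4 and 5 counts and CCR1 from 2992 and 2876 to 5040 and 5252, both opposite to JJN3.

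**Figure D5:**
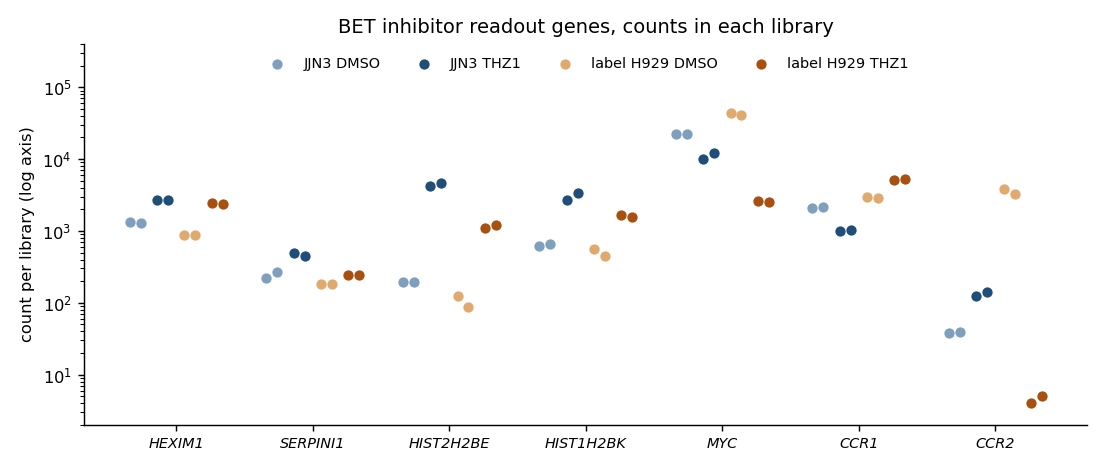
Counts of the 7 readout genes of BET inhibitors in each library, on a log axis, with a point per library. HEXIM1 and both histone genes stand higher with THZ1 under both line labels and MYC lower, whereas CCR1 and CCR2 move in opposite directions.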

How the data were processed

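RNA was sequenced as single-end reads in 8 libraries, 2 for each of 4 groups taken from the sample labels. The authors aligned reads to hg19 with STAR 2.5.2a, kept reads mapping to a single place, and deposited raw counts per Ensembl gene from featureCounts. Total counts ran from 17476443 to 19194371 per library. The authors' DESeq2 tables, which hold fold changes and p-values, were not used apart from their gene symbols. Genes were tested here with edgeR 4.0.16 in R 4.3.3 (TMM, filterByExpr, quasi-likelihood test, Benjamini-Hochberg), within each line label, and over 8 libraries for differences between line labels and groups. Genes were called at an adjusted p under 0.05 and a log2 fold change beyond 0.5. On simulated data 91% (JJN3) and 87% (H929 labels) of genes changed by 1 on the log2 scale were called. The changed genes were drawn from those above a minimum mean count. Smaller changes, such as those of the 5 members within a line label, were not simulated, so these shares do not apply to them. With 2 libraries against 2 an exact permutation test cannot go below p = 0.333. Alternatives were DESeq2 1.42.0, other scalings, filters and limits, a replicate block, summed gene IDs and leaving out libraries. Named genes were the 5 members, CDK7, CDK9, CCNT1, CCNH, all BET readout genes, the 3 largest called rises and falls per list in JJN3 among genes whose average log2 CPM reached 3, and the 3 genes most alike, except a gene that is not reported here. Members and lists were chosen with earlier results of these data known.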

Additional observations from a re-analysis of the deposited data

Results flagged for a closer look

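The response to THZ1 differed between the line labels, by the interaction test over 8 libraries, for BRD3 (log2 difference -1.26, H929 labels minus JJN3), CCNK (-0.51), CDK12 (-0.41) and CDK13 (-0.29). These are 4 of the 5 members, and 62.0% of all 16122 genes tested differed by the same test. For BRD3 the log2 fold change was 0.94 in JJN3 and -0.33 between the H929 labels. By the adjusted p alone, 28.9% of all genes were higher in JJN3 and 40.9% lower between the H929 labels. The libraries labelled H929 DMSO and H929 THZ1 differ in light chain and in FGFR3, so a difference in response and a difference in source cannot be told apart. Groups of 2 libraries are too small to look for single libraries far from the others.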

How the results depend on the processing

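Directions held under every alternative except for CCNK between the H929 labels (lowest -0.004 and highest 0.029 when libraries were left out) and the BRD2 difference between the line labels with total counts (0.018). The CCNK rise in JJN3 was 0.429 with total counts, 0.492 without the filter and 0.451 to 0.609 when libraries were left out, and the limit of 0.5 was missed in both first cases. With a limit of 1 on the log2 fold change none of the members was called, 0 in JJN3 and 0 under the H929 labels (CCNK 0.533, BRD2 0.89 and BRD3 0.939 in JJN3, BRD2 0.755 under the labels), and with the adjusted p alone 5 were called higher in JJN3 (CDK12 at 0.298 and CDK13 at 0.412 added), and BRD3 was called lower between the labels (-0.331). The CDK13 difference between the line labels lost its call with total counts (-0.15) and without the filter (-0.21). It ran from -0.306 to -0.234 when each of the 8 libraries was left out in turn. The cause was not tested. Under a limit of 1, 1397 genes were called higher and 1006 lower in JJN3 (2877 and 2972 at 0.5), and 3146 lower between the H929 labels (4847). DESeq2 and total counts left 46 of 48 list counts within 1.5 times, but 12 of 24 moved further with the adjusted p alone and 14 of 24 with a limit of 1, where DNA damage response genes lower in JJN3 went from 10 to 1 and bromodomain genes higher from 14 to 5. Same-numbered libraries did not deviate together (correlation -0.015 in JJN3 and -0.039 under the H929 labels, over 9676 genes), so the numbers are taken as names, and the replicate block changed no member's call (3 higher in JJN3, BRD2 at 0.89). Leaving out a library leaves a group with 1, assumed to vary like the others. The depth limits BRD3 most, at 296 to 1021 counts.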
